A study of Mus musculus with 18 samples.

Results

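T cell receptor variable (V) genes are the members described here: every feature whose name starts with Trav (alpha chain), Trbv (beta chain), Trdv (delta chain) or Tcrg-V (gamma chain), 175 of the 32285 features in the count tables. They were followed in T cells, taken as cells with at least 1 Cd3e UMI (unique molecular identifier, a counted RNA molecule) and no Cd79a UMI. This gate held 19575 of 59338 cells: 13205 of 16705 from small bowel epithelium, 1607 of 21347 from small bowel lamina propria and 4763 of 21286 from colon. The members comprise 128 Trav, 35 Trbv, 6 Trdv and 6 Tcrg-V genes, and RefSeq on GRCm38.p6 lists 145 of them as V segments and 30 as V segment pseudogenes. The Trav and Trdv genes lie on chromosome 14, the Trbv genes on chromosome 6 and the Tcrg-V genes on chromosome 13.

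Each T cell assembles its receptor from a V gene joined to shorter segments and a constant gene, so a cell's V genes mark its lineage and, when many cells share them, its descent. Most T cells pair an alpha with a beta chain, and gamma-delta T cells pair a gamma with a delta chain. The delta locus lies inside the alpha locus, and several Trav genes, those with dv in their names, are used in both chains. In the mouse gut, Tcrg-V7 is known as the gamma gene of many intraepithelial gamma-delta T cells, and Tcrg-V6 joined with Trdv4 is known from gamma-delta cells that make interleukin-17. Trav11 is the alpha gene of invariant natural killer T cells and Trav1 that of mucosal-associated invariant T cells.

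The cells were CD45-enriched immune cells of mouse small bowel epithelium, small bowel lamina propria and colon, where the colon preparation held epithelium and lamina propria together. The 3 groups were St8sia6 knockout (KO), heterozygous (het) and wild-type (WT) mice, with no treatment named in the labels, and St8sia6 encodes a sialyltransferase. Per the labels, each of 3 runs took 1 KO, 1 het and 2 WT mice, so a WT value pools 2 animals where a KO or het value comes from 1. Hashtag antibodies marked the genotype, cells were pooled, and RNA was read from the 5′ end, where the V gene lies. Each barcode ending was assigned to a genotype by its top median hashtag and endings were grouped by 3 into libraries 1 to 3, giving 9 genotype and library sums per tissue. No age, sex or strain is given in the labels used here. T cells were divided into cells with at least 2 Trdc UMIs (Trdc cells, the gamma-delta class), and otherwise Cd4 cells (Cd4 without Cd8b1), Cd8b1 cells (Cd8b1 without Cd4) and Cd8a-only cells (Cd8a with neither). The remaining T cells, 978 in epithelium, 666 in lamina propria and 1301 in colon, were in no class.

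The classes were gated on Trdc, Cd4, Cd8b1 and Cd8a, so these genes follow the class names by construction. Outside the Trdc class the gate allows at most 1 Trdc UMI per cell, and the Cd8a-only class was mixed. Trdc UMIs were present in 1.0%, 1.7% and 21.6% of epithelial Cd4, Cd8b1 and Cd8a-only cells, and Cd8a in 61.2% of epithelial Cd4 cells. Rag1, a gene of receptor assembly, had no UMI in the 4 classes of any tissue. Epithelial sums of a class held 43 to 979 cells and colon sums 23 to 310. Lamina propria sums held 4 to 96 cells, and those under 20 cells were left out of tests. In lamina propria, the WT cells of library 3 carried a median of 198 WT and 156 het hashtag UMIs, so their genotype is weakly marked. At most 87 cell barcodes were shared between any 2 libraries (at most 1.25% of the smaller one).

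V gene RNA was found in most epithelial and colon T cells and in under 1 in 2 lamina propria T cells. A call at a locus was the V gene with the single highest UMI count in a cell. At least 1 call was made in 91.7% of epithelial T cells (range over the 9 sums 87.0% to 95.3%), in 92.6% of colon T cells (89.7% to 95.6%) and in 47.2% of lamina propria T cells (35.8% to 53.8%). The lamina propria sums did not overlap those of either other tissue. T cells in no class are part of these shares. A Trbv call was made in 50.5%, 65.6% and 28.1% of them in epithelium, colon and lamina propria. In Cd4 cells it was made in 84.2%, 86.4% and 44.3%. Cells that should lack V gene RNA had a call less often: 3.55%, 3.90% and 2.51% of B-like cells in epithelium, colon and lamina propria, and 9.34%, 6.99% and 2.51% of cells with Epcam RNA. The median UMI count per cell was 4782 to 5739 in the epithelial classes, 4889 to 5824 in the colon classes and 2503 to 2912 in the lamina propria classes. Thinned to 1000 UMIs per cell, the shares were 65.2%, 69.8% and 25.0% in epithelium, colon and lamina propria.

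Beta-chain V RNA was also low in lamina propria relative to the beta constant genes, which are spliced to the same V genes. In Cd4 cells, lamina propria held 29.6, 50.5 and 104 Trbv UMIs per 100 Trbc UMIs (lowest, median and highest of 6 sums). The epithelium held 108, 192 and 276 and the colon 252, 417 and 575 (9 sums each). Lamina propria stood below the other tissues without overlap, and epithelium and colon overlapped only at the edge. In Cd8b1 cells, the medians were 34.1, 176 and 373 for lamina propria, epithelium and colon, and no tissue overlapped another. Alpha-chain V UMIs per 100 Trac UMIs had Cd4 medians of 29.1, 114 and 173 in the same order. The constant genes did not follow the V genes. In Cd4 cells of lamina propria over colon, Trbc1 was higher by 1.54 (log2 fold change, edgeR quasi-likelihood test, adjusted p = 1.88e-05), Trbc2 by 1.13 (adjusted p = 2.53e-06) and Trac by 0.46 (adjusted p = 0.00431). RNA of other cells moved with tissue too: Igha UMIs were in 73.6% to 73.9% of colon class cells, 99.7% to 100% of lamina propria class cells and 6.4% to 16.5% of epithelial ones. The part of depth, free RNA or preparation in the V gene values was not tested. Levels of Tcrg-V7, Tcrg-V1 and Trdv4 in Trdc cells are given below beside shares of calls, which divide out the detection of V genes. Those of most other members are given as levels only.

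**Figure D1:**
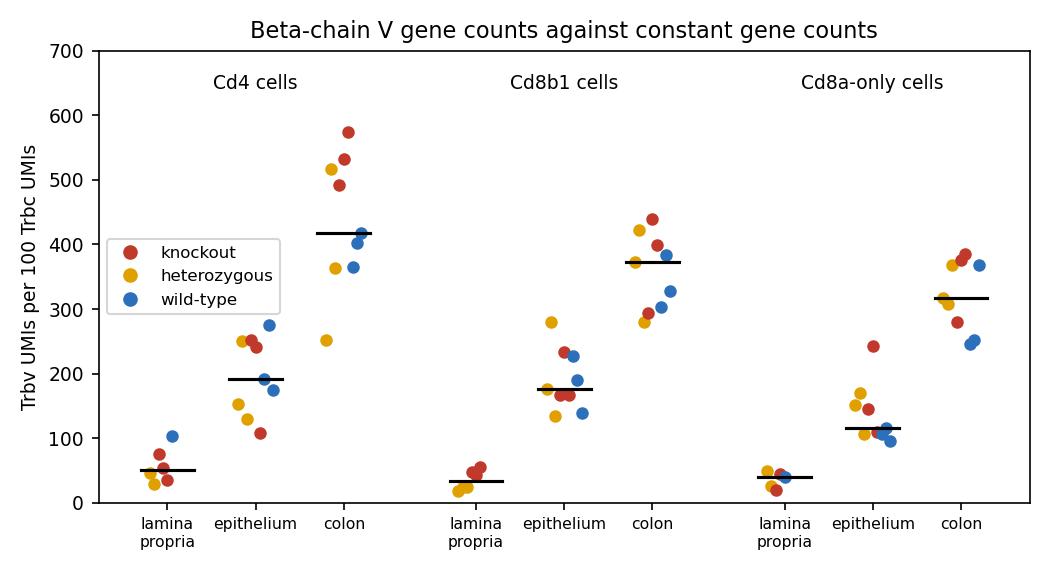
Trbv UMIs per 100 Trbc1 and Trbc2 UMIs (y axis) in each genotype and library sum (points) of 3 T cell classes, by tissue, with bars at the medians. In each class the lamina propria sums lie lowest, with medians from 34.1 to 50.5, and the colon sums highest, with medians from 317 to 417.

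Of the 175 members, 131 had at least 1 UMI in T cells (93 Trav, 26 Trbv, 6 Trdv and 6 Tcrg-V). The other 44 were at 0, among them Trav11 and Trav11d. The copy Trav11n had 16 UMIs in all, 10 in epithelium, 2 in lamina propria and 4 in colon. The Trav region holds near-identical copies, named with d and n, and 73 members carry such a name. How their reads were divided between copies is not given in the sources used here, so a value for 1 copy is uncertain. The beta genes gave 77474 UMIs, the gamma genes 35774, the alpha genes 30025 and the delta genes 12383.

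Among the 6 Tcrg-V members, Tcrg-V7 (chr13:19178042-19178492) led in the gamma-delta class of epithelium and colon, and held a larger share of calls in colon. The gamma gene Trgv2 is listed under another name and is in no gamma call here. It had UMIs in most Trdc cells of both tissues, as given in the last paragraph. In the epithelium Tcrg-V7 took 33.9%, 52.2% and 65.3% of the gamma calls (lowest, median and highest of 9 sums), and in the colon 51.7%, 75.5% and 87.8%. The ranges overlapped between 51.7% and 65.3%, and both the lowest colon and the lowest epithelial value came from het library 2. The mean was 50.5% ± 9.08 (SD, n = 9) in epithelium and 71.8% ± 12.1 (n = 9) in colon, a difference of -21.2 percentage points (exact permutation test, two-sided, p = 0.000987). It lay between -26.1 and -17.8 points over the other settings tried, the largest p of the same test being 0.0346 with library 1 left out. The -26.1 came from cells thinned to 1000 UMIs, where 5 colon sums had enough calls. Sums paired by number gave an exact permutation p of 0.0625 there, the least that 5 pairs allow. In the main setting depth was alike, with a median of 5739 UMIs per epithelial and 5824 per colon Trdc cell.

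Other Tcrg-V members filled the rest of these calls differently in the 2 tissues. Tcrg-V1 (chr13:19340016-19340454) took 28.5% ± 4.76 of epithelial and 13.0% ± 7.71 of colon gamma calls, and Tcrg-V4 took 18.6% ± 8.38 and 7.53% ± 6.98 (SD, n = 9 each). Tcrg-V6 was rare in epithelium, with 17 of 2572 calls (0.661%, exact binomial 95% interval 0.385% to 1.06%), and had 16 of 426 in colon (3.76%, 2.16% to 6.03%). Intervals on pooled cells cover counting error only. Colon Tcrg-V6 calls came from all 9 sums, from 1.82% to 14.7%, the highest in KO library 2. Tcrg-V3 and Tcrg-V5 held means of 1.27% and 0.514% in epithelium and 2.47% and 0.598% in colon. On the scale of CPM, the UMIs of a gene scaled to the total of its sum, where 32.7% of all genes tested passed between epithelium and colon in Trdc cells, 5 of 43 members passed. Tcrg-V7 was lower in epithelium by 0.75 ± 0.14 on the log2 scale (344 to 617 CPM against 488 to 1215, edgeR, adjusted p = 0.000204), and Tcrg-V1 was higher by 0.89 ± 0.16 (131 to 255 against 43.9 to 140 CPM, adjusted p = 0.000153). Both ranges overlapped at their edges.

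**Figure D2:**
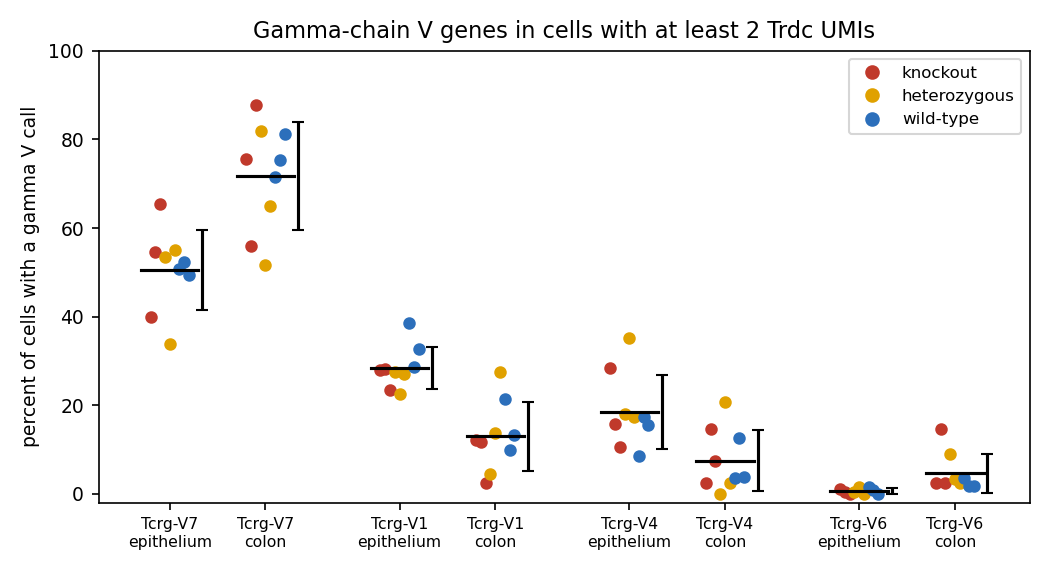
Share of gamma V calls (y axis, percent of cells with a call) held by 4 gamma genes in Trdc cells of epithelium and colon. Calls cover the Tcrg-V members and leave out the gamma gene Trgv2. Points are the 9 genotype and library sums of a tissue, bars the mean and SD, and Tcrg-V7 averages 50.5% in epithelium and 71.8% in colon.

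Among the delta genes, Trdv5 and Trdv2-2 made up most calls of epithelial gamma-delta cells. Trdv5 held 32.6%, 42.4% and 81.3% of delta calls (lowest, median and highest of 9 sums), Trdv2-2 held 16.1%, 41.1% and 52.2%, and Trdv1 and Trdv4 averaged 9.91% ± 4.73 and 5.09% ± 2.46 (SD, n = 9). The het library 2 sum had both the highest Trdv5 and the lowest Trdv2-2 share. Trdv3 averaged 0.333% there, and Trdv2-1 had 2 UMIs in all T cells. Trdv4 (chr14:54075004-54075515), the delta gene known to join Tcrg-V6, was lower in epithelium, at 4.78, 11.6 and 34.9 CPM against 32.2, 63.1 and 431 CPM in colon. The ranges overlapped only between 32.2 and 34.9 CPM, and the log2 difference was -3.06 ± 0.46 (edgeR, adjusted p = 2.33e-05). Pooled over sums, Trdv4 took 75 of 1747 delta calls in epithelium (4.29%, exact binomial 95% interval 3.39% to 5.35%) and 42 of 228 in colon (18.4%, 13.6% to 24.1%).

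Most alpha-locus calls in gamma-delta cells were of dv genes, and whether the RNA belonged to an alpha or a delta chain was not tested. A dv-named Trav held 79.0% of alpha-locus calls in epithelial Trdc cells (932 of 1180), 79.2% in colon (118 of 149) and 89.5% in lamina propria (17 of 19). The share was 11.1% and 13.9% in epithelial Cd4 and Cd8b1 cells and 15.0% and 13.6% in the colon classes. Trav13-4-dv7 led with 6.93%, 25.4% and 67.9% of alpha-locus calls in epithelial Trdc cells, the highest in KO library 1. Trav15-2-dv6-2 averaged 18.7% ± 5.66, Trav15-1-dv6-1 14.9% ± 5.62, Trav15d-1-dv6d-1 9.61% ± 3.66 and Trav21-dv12 5.69% ± 3.29 (SD, n = 9). Trdc cells also carried beta V RNA, in 33.9% of epithelial and 42.5% of colon cells. Trbv15 (12.9% ± 13.2, 46.3% in het library 2) and Trbv24 (9.43% ± 5.63) led those calls in epithelium. Trbv24 reached at most 3.47% of beta calls in any sum of epithelial Cd8b1 and Cd8a-only cells.

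Delta use differed between gamma genes in the gamma-delta class, described here by pooled cells with both calls. In epithelium, Tcrg-V7 cells held Trdv2-2 in 54.4% (369 of 678), where other gamma cells held it in 24.7%, and in the sums with at least 10 such cells the share ran from 40.8% to 64.6%. In colon it was 52.4% (66 of 126) against 21.3%. Tcrg-V4 cells of the epithelium held Trdv5 in 74.6% (258 of 346, 35.3% to 93.2% by sum) against 39.1% of other gamma cells, and Trav13-4-dv7 in 65.3% (141 of 216) against 18.8%. Tcrg-V1 cells held Trdv1 in 20.4% (70 of 343) against 4.96%, and Trav15-1-dv6-1 in 24.7% against 9.30%. All 14 epithelial Tcrg-V5 cells with a delta call held Trdv5. Tcrg-V6 was joined with Trdv4 in 15 of 15 colon cells from 9 sums and in 7 of 7 lamina propria cells from 6 sums. In epithelium it was in 4 of 14 cells, from 4 sums. Of the others there, 6 held Trdv5, all from 1 sum, and 3 held Trdv2-2, all from 1 sum. Cells of 1 sum share animals and can share a clone, so these counts carry no test.

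In the lamina propria the gamma-delta class was small (116 cells) and gave 24 gamma and 33 delta calls. Tcrg-V6 held 10 of 24 gamma calls (41.7%, exact binomial 95% interval 22.1% to 63.4%, from 6 sums) and Tcrg-V7 6 (25.0%, 9.77% to 46.7%). Trdv4 held 20 of 33 delta calls (60.6%, 42.1% to 77.1%, from 8 sums), and Trav13-4-dv7 14 of 19 alpha-locus calls. Cd163l1, a marker of interleukin-17 gamma-delta cells, had a UMI in 27.6% of these cells, in 4.3% of colon and in 0.4% of epithelial Trdc cells, and the innate-like T cell factor Zbtb16 in 38.8%, 11.5% and 5.7%. In the 1 lamina propria sum that entered the test (KO library 1, 26 cells), Tcrg-V7 had 0 UMIs of 87395, at least 13.5-fold lower than in epithelium and at least 23.9-fold lower than in colon (floor of 3 counts over the group). It was the 1 of 43 members that edgeR called in either comparison, where 3.03% and 3.28% of all genes passed. Since 1 sum has no spread of its own and is assumed to vary like the sums of the other tissues, the adjusted p (0.000974 and 0.000191) say nothing of the spread between lamina propria samples.

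Beta V use was broad in the Cd4, Cd8b1 and Cd8a-only classes outside a few sums. In colon Cd4 cells, Trbv31 (12.0% ± 3.78 of beta calls), Trbv13-2 (11.7% ± 3.82), Trbv3 (11.3% ± 4.35), Trbv13-1 (7.41% ± 2.47), Trbv19 (6.82% ± 3.24) and Trbv1 (6.76% ± 2.92) led (SD, n = 9). In epithelial Cd8b1 cells the order was Trbv16 (14.7% ± 9.01), Trbv12-2 (10.2% ± 4.79), Trbv19 (7.99% ± 5.62), Trbv13-1 (7.71% ± 4.03), Trbv1 (6.95% ± 3.83) and Trbv29 (6.8% ± 5.94), and neighbours in it lay within each other's SD. Colon Cd8a-only cells had Trbv1 first (15.3% ± 7.5, up to 30.1% in het library 3), then Trbv12-1 (8.77% ± 4.52). The lamina propria Cd4 cells had Trbv31 in 23, Trbv13-2 in 21, Trbv1 in 17, Trbv13-1 in 15 and Trbv26 in 13 of 154 calls, and its Cd8b1 cells Trbv12-2 in 17 and Trbv16 in 16 of 100. Trav1 was rare, with 52 calls in epithelium, 8 in lamina propria and 35 in colon over all T cells. Between 21.4% and 34.2% of epithelial and colon cells with beta V RNA had more than 1 Trbv gene, by class.

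Cd8b1 and Cd4 cells of the epithelium differed in 14 of 52 members tested, 8 higher and 6 lower in Cd8b1 cells, where 13.8% of all genes passed, 6.06% higher and 7.79% lower (edgeR with the sum as a block). The median log2 difference was 0.15 over the members and 0.01 over all genes. Trav8d-2 (chr14:53042428-53042891) had 270 UMIs in Cd8b1 cells and 2 in Cd4 cells, 65.8 times as many per UMI sequenced (exact counting interval 18.0 to 546). Here and below, such an interval takes each pooled UMI as an independent count. It leaves out the spread between cells, clones and sums and is too narrow for a difference between groups. Trav8d-2 was higher in Cd8b1 cells in 8 of 9 sums (adjusted p = 3.17e-08). Trbv12-1 (chr6:41113567-41114067) had 2.86, 19.7 and 49.9 CPM in Cd8b1 cells and 0, 0 and 13.1 in Cd4 cells (3.10 ± 0.54, adjusted p = 6.71e-05). It was higher in Cd8b1 cells in 8 of 9 sums, with ranges that overlapped. Trbv12-2 (1.59, adjusted p = 2.45e-05), Trbv17 (2.58, 0.00129), Trav16 (3.44, 0.000352), Trav16n (1.69, 0.0130), Trbv14 (1.88, 0.0328) and Tcrg-V1 (1.38, 4.30e-06) were also higher. Higher in Cd4 cells were Trbv13-2 (-1.14, 0.000884), Trav14d-3-dv8 (-1.76, 0.00496), Trav14-2 (-2.22, 0.0132), Trbv31 (-1.97, 0.0142), Trav10 (-1.67, 0.0282) and Trbv20 (-1.47, 0.0457). Trav10 was expanded in the Cd4 cells of het library 2, as described below, with 378 of 541 alpha calls (69.9%). In the other sums with 50 or more calls it held at most 6.85%. Without library 2 the calls of Trbv17 (adjusted p = 0.0908), Trav16 (0.0519), Trav16n (0.0694), Trav14d-3-dv8 (0.0862), Trbv31 (0.0574) and Trbv20 (0.149) ended. Without library 3 those of Trav16n (0.0917), Trbv14 (0.248), Trbv13-2 (0.0668), Trav14-2 (0.170), Trbv31 (0.200), Trav10 (0.0521) and Trbv20 (0.286) ended, and without library 1 that of Trbv14 (0.0959). By DESeq2 Trav10 (-0.997, adjusted p = 0.502), Trbv14 (0.0592) and Trav14d-3-dv8 (0.0579) did not pass, and with a hashtag share of at least 80% Trav14-2 (0.143), Trbv31 (0.0711) and Trbv20 (0.0750) did not. Over the 3 tissues 21 member tests passed (17.0% of all genes' tests), and 12 did without library 3, 11 of them among the 21.

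The colon gave 7 of 29 members in the same comparison, 5 higher and 2 lower, where 26.2% of all genes passed, 11.8% higher and 14.4% lower. Trbv12-1 had 33.9, 58.9 and 99.3 CPM in Cd8b1 cells and 0, 10.1 and 29.2 in Cd4 cells. Its groups did not overlap and all 9 sums were higher in Cd8b1 cells (log2 difference 1.90 ± 0.38, edgeR, adjusted p = 0.000210). Trbv12-2 was higher in 8 of 9 sums (1.27, adjusted p = 0.00232). Both Trbv12 genes thus passed in epithelium and colon in the same direction. Trbv12-2 had a UMI in 1172 epithelial and 426 colon T cells but was the call in 592 and 167. Its level thus also counts RNA in cells called for another Trbv gene or for none. Tcrg-V1 was higher in Cd8b1 cells in 9 of 9 sums without overlap (3.03 ± 0.30, adjusted p = 2.83e-09), and Tcrg-V4 (2.18, 0.000216) and Tcrg-V7 (1.65, 0.0206) were higher in 8 of 9 and 6 of 9 sums, with overlap. Trbv31 (-1.20, 0.0281) and Trav4-4-dv10 (-1.61, 0.0473) were higher in Cd4 cells. The Tcrg-V7 call ended without library 2 (0.483), those of Trbv31 (0.284), Trav4-4-dv10 (0.237) and Trbv12-2 (0.0548) without library 3, and that of Trbv31 also without library 1 (0.0701). With a hashtag share of at least 80%, Tcrg-V7 (0.0658) and Trbv31 (0.191) did not pass, and with Cd3e of at least 2 Trav4-4-dv10 (0.0537) did not. Lamina propria gave 0 of 7 tests by edgeR, with 3 at an unadjusted p under 0.05, and 0 by DESeq2, where 8.6% of all genes passed by edgeR. Gamma V RNA was also found outside the gamma-delta class. Pooled over sums, a gamma call was made in 24.1% of epithelial Cd4 (443 of 1837) and 30.9% of Cd8b1 cells, against 6.66% and 27.5% in colon. Library 2 gave 291 of the 443 epithelial Cd4 calls, 176 of them Tcrg-V7. That library holds the large het sum with the Trbv13-3 expansion described below, so the pooled Cd4 share rests mostly on it.

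**Figure D3:**
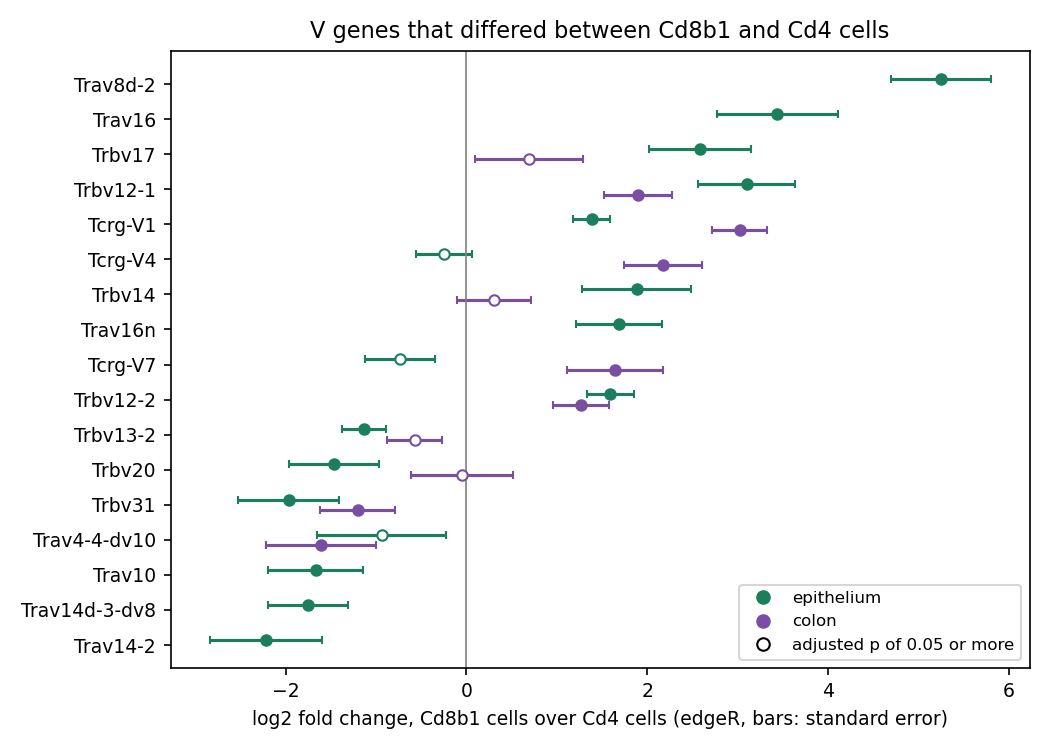
Log2 fold change of V genes in Cd8b1 over Cd4 cells (x axis, edgeR estimate, bars: standard error) in epithelium and colon, for each member that passed in at least 1 of them. Filled points passed an adjusted p of 0.05, and Trbv12-1, Trbv12-2 and Tcrg-V1 lie to the right, and Trbv31 to the left, in both tissues.

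Cd8a-only cells had more RNA of gamma and delta V genes than Cd8b1 cells, and 21.6% of them in epithelium and 13.1% in colon held 1 Trdc UMI, under the limit of the gamma-delta class. In epithelium, 17 of 52 members differed, 9 higher and 8 lower. Of all genes 24.9% passed there, 12.3% higher and 12.6% lower. In colon 7 of 29 differed, 5 higher and 2 lower, and of all genes 15.5%, 5.91% higher and 9.58% lower. Tcrg-V7 was higher in both: 129, 189 and 323 CPM against 13.4, 27.0 and 111 in epithelium, without overlap (log2 difference 2.63 ± 0.32, edgeR, adjusted p = 6.19e-08), and 45.0, 222 and 329 against 0, 19.5 and 105 in colon (2.59 ± 0.35, adjusted p = 8.42e-07). Trdv2-2 (4.35 in epithelium, 2.27 in colon) and Trdv5 (3.39 and 2.33) were higher in both, and Trdv4 (2.95), Trav15-2-dv6-2 (2.80) and Trdv1 (2.71) in epithelium. The lower members were alpha and beta genes, among them Trav8d-2 (-1.83), Trbv17 (-2.01), Trav16n (-1.74), Trav5-1 (-2.37), Trav14d-3-dv8 (-2.0) and Trbv29 (-1.45) in epithelium and Trbv20 (-1.93) and Trbv31 (-1.55) in colon. Tcrg-V4 (1.16) and Tcrg-V1 (0.92) were the remaining higher members of colon. These calls ended when 1 library was left out for colon Trdv5 (adjusted p = 0.969) and Tcrg-V4 (0.106) without library 2, colon Trbv20 without library 1 (0.0576) or 3 (0.235), colon Trbv31 without library 1 (0.179) or 2 (0.125), and in epithelium Trav14d-3-dv8 without library 1 (0.184), Trbv29 without library 2 (0.0823) and Trdv1 without library 3 (0.0854). By DESeq2, epithelial Trav5-1 (-1.78, adjusted p = 0.277) and colon Trdv5 (0.126), Trbv20 (0.0885) and Trbv31 (0.484) did not pass. With a hashtag share of at least 80%, colon Tcrg-V4 (0.0598), Trbv20 (0.118) and Trbv31 (0.0956) did not. In lamina propria 0 of 7 tests passed by edgeR, none at an unadjusted p under 0.05, and 0 by DESeq2, where 0.674% of all genes passed by edgeR.

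Trdc cells had more RNA of delta V genes and less of many alpha and beta V genes than Cd8a-only cells. The Trdc class is gated on the constant gene that Trdv and dv genes are spliced to in the same transcript, so the higher levels of those genes are tied to the gate. The lower alpha and beta levels are tied to it too, since Trdc parts the 2 classes. The counts and adjusted p below describe the gate and are no evidence of a difference beyond it. In epithelium 29 of 52 members passed, 10 higher and 19 lower in Trdc cells, where 2.84% of all genes did, 1.37% higher and 1.48% lower. In colon 14 of 29 passed, 6 higher and 8 lower, where 0.899% of all genes did, 0.668% higher and 0.231% lower. In the epithelium, Trav13-4-dv7 (2.45 ± 0.33), Trdv5 (2.13), Trdv1 (2.08), Trdv2-2 (1.88), Trav15-2-dv6-2 (1.75) and Trdv4 (1.62) had the largest positive differences on the log2 scale. The largest decreases were those of Trav12-1, Trav5-4, Trav8d-2, Trav3-3, Trav12-2 and Trav16n. Trav12-1 had 2 UMIs in Trdc and 215 in Cd8a-only cells, a ratio of 121 (exact counting interval 33.1 to 1005), Trav5-4 had 1 and 85 (95.6, 16.7 to 3820) and Trav8d-2 had 3 and 67 (25.1, 8.23 to 125). In the colon, Trdv4 (4.93 ± 0.35) and Trav15-2-dv6-2 (3.03) led the higher members, followed by Trdv5 (2.42), Trav13-4-dv7 (2.15), Tcrg-V7 (2.02) and Trdv2-2 (1.94). Trav3-3 had 0 UMIs in colon Trdc and 172 in Cd8a-only cells, at least 22.8-fold lower, and Trbv12-1 (-4.32), Trbv13-3 (-4.04), Trbv1 (-3.24), Trbv3 (-2.77) and Trbv13-1 (-2.61) were lower too. Single libraries carried the calls of Trav12-1 (edgeR, adjusted p = 0.0686) and Trav5-4 (0.125) without library 1, Trav12-2 (0.0610) and Trav3-3 (0.0593) without library 2 and Trav16n (0.0561) without library 3 in epithelium. Of the higher members there, the Trdv4 call ended without library 1 (0.170) or 3 (0.0518), and Trdv1 did not pass by DESeq2 (adjusted p = 0.0534). Over the 3 tissues 43 member tests passed (1.66% of all genes' tests), and 26 and 24 of those 43 did without library 1 and 3. In colon, single libraries carried the calls of Trav3-3 (0.0815) and Trbv13-3 (0.133) without library 2, Trbv3 without library 2 (0.0811) or 3 (0.182), and Trbv13-1 (0.128) without library 3. The higher member Trav13-4-dv7 lost its colon call without library 3 (0.387) and by DESeq2 (0.0656). Lamina propria, with 1 Trdc sum, gave 0 of 7 by edgeR (1 at an unadjusted p under 0.05) and 0 by DESeq2, where 0.217% of all genes passed by edgeR.

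Between epithelium and colon, 24 of 121 V gene tests over the 4 classes passed (19.8%), where 40.5% of all tests did. Of these 24 tests, 19 were lower in epithelium, and a gene can count in more than 1 class. Whether this direction differs from that of all genes was not tested. Trbv UMIs per 100 Trbc UMIs were lower there as a whole. The medians were 192 against 417 in Cd4, 176 against 373 in Cd8b1 and 115 against 317 in Cd8a-only cells. How far single members fell beyond this general difference was not tested. By class, 3 of 19 members passed in Cd4 cells (41.1% of all genes), 6 of 23 in Cd8b1 cells (44.4%) and 10 of 36 in Cd8a-only cells (46.2%). Trbv31 (chr6:41557693-41558371) was lower in epithelium in all 3 classes. In Cd4 cells it had 4.78, 27.5 and 315 CPM in epithelium and 39.8, 104 and 179 in colon (-1.13 ± 0.45, edgeR, adjusted p = 0.0467), in Cd8b1 cells medians of 7.17 and 31.6 (-2.04 ± 0.55, adjusted p = 0.00330) and in Cd8a-only cells medians of 8.29 and 12.9 (-1.27 ± 0.44, adjusted p = 0.0206). All 3 ranges overlapped. Library 2 carried the call in Cd8b1 cells (-0.96 without it, adjusted p = 0.267) and in Cd8a-only cells (0.08 without it, adjusted p = 0.937, 0.0643 without library 3 and 0.149 on sums per library), and the Cd4 call ended without library 1 (0.146) or 3 (0.107). Trbv31 took 12.0% of colon Cd4 beta calls, and KO library 2 held the highest epithelial Cd4 CPM.

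In Cd8a-only cells, Trbv1 had 6.24, 72.2 and 201 CPM in epithelium and 51.3, 203 and 442 in colon (-1.66 ± 0.38, edgeR, adjusted p = 0.000890). The other members lower in epithelium there were Trbv23 (-2.49, but -1.80 with an adjusted p of 0.155 by DESeq2), Trav13-2 (-2.15), Trav3-3 (-1.99), Trav14-2 (-1.36, ended without library 3, adjusted p = 0.0830), Trbv12-1 (-1.26), Trbv29 (-1.10) and Trbv15 (-0.84), and Trav15-2-dv6-2 was higher (1.03, ended without library 2, adjusted p = 0.258, and at a hashtag share of at least 80%, 0.107). In Cd8b1 cells, Trbv20 (-1.72, ended without library 3, 0.0966), Tcrg-V4 (-1.09, ended without library 1, 0.0557, or 3, 0.10), Trbv12-1 (-1.09) and Trbv3 (-1.03, ended without library 1, 0.188) were lower in epithelium, and Tcrg-V1 was higher (0.55, ended without library 1, 0.201, and at a hashtag share of at least 80%, 0.157). In Cd4 cells, Tcrg-V1 was higher in epithelium (2.34 ± 0.43, adjusted p = 6.74e-05, 7.31 to 89.1 against 0 to 11.0 CPM) and Trav4-4-dv10 lower (-1.61, ended without library 2, 0.638, or 3, 0.0685, and by DESeq2, 0.0719). In Trdc cells, Trbv19 was lower (-2.13, adjusted p = 0.000742) and Trbv12-1 higher (1.75, 0.0279, but 0.0695 with the replicate block) in epithelium.

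Lamina propria stood apart by lower V gene levels. All 13 member tests that passed between epithelium and lamina propria were higher in epithelium (10.7% of 121 tests, with 19.1% of all genes passing and 9.49% higher). All 16 that passed between lamina propria and colon were lower in lamina propria (13.2%, with 20.2% of all genes passing and 11.1% lower). A gene can count in more than 1 class. These calls stand beside the low V gene detection of lamina propria given above, and 1 of the 13 and 1 of the 16 rest on the single Trdc sum. With Cd3e of at least 2, 8 and 5 member tests passed. Trbv16, Tcrg-V1, Trbv19, Trbv3 and Trbv13-2 in Cd4 cells, Trbv13-1, Tcrg-V1, Trbv16 and Trbv12-2 in Cd8b1 cells, Tcrg-V7, Tcrg-V4 and Tcrg-V1 in Cd8a-only cells and Tcrg-V7 in Trdc cells were the 13. For Tcrg-V7 in Cd8a-only cells, lamina propria sums had 0 to 47.8 CPM (5 UMIs in all) and epithelial sums 129 to 323 (log2 difference 4.05 ± 0.72, edgeR, adjusted p = 0.000121). Tcrg-V1 had 3 UMIs in lamina propria and 248 in epithelial Cd4 cells, a ratio of 9.96 (exact counting interval 3.37 to 48.6), and Tcrg-V4 had 3 and 1274 in Cd8a-only cells, a ratio of 10.8 (3.67 to 52.2). Against colon, the lower members were Trbv3, Trbv19, Trbv16, Trbv31 and Trbv13-2 in Cd4 cells, Trbv20, Tcrg-V4, Trbv13-1, Trbv3, Trbv12-1 and Tcrg-V1 in Cd8b1 cells, Trbv1, Tcrg-V7, Tcrg-V4 and Tcrg-V1 in Cd8a-only cells and Tcrg-V7 in Trdc cells. Trbv20 had 0 UMIs in lamina propria Cd8b1 cells, at least 9.67-fold lower than in colon. Without 1 of the libraries the calls against epithelium ended for Trbv16 in Cd4 (library 2, adjusted p = 0.190) and Cd8b1 cells (library 2, 0.121, or 3, 0.104), Trbv19 (library 3, 0.106), Trbv3 (library 1, 0.0714, or 3, 0.0502), Trbv12-2 (library 1, 0.183, or 2, 0.187) and Trbv13-1 (library 3, 0.101). Against colon 16 passed, and 9 did without library 1. The calls ended for Trbv16 (library 2, 0.421), Trbv31 (library 1, 0.0883, or 3, 0.0582), Trbv1 (library 1, 0.0881, or 3, 0.0578), Trbv20 (library 1, 0.0927, or 3, 0.142), Trbv12-1 (library 1, 0.0535, or 2, 0.0594), Tcrg-V4 in Cd8b1 cells (library 1, 0.0519), Trbv3 in Cd8b1 cells (library 1, 0.119), Trbv13-1 (library 3, 0.0568) and Tcrg-V1 in Cd8b1 cells (library 3, 0.0518).

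Few V genes differed by genotype. Between KO and WT, 1 of 282 tests passed (0.355%, 0.218% of all genes), between het and WT 5 of 282 (1.77%, 0.398%) and between KO and het 1 of 282 (0.355%, 0.0617%). The 1 call of KO and 1 of the 5 of het against WT were Trbv1 in lamina propria Cd4 cells, where WT was a single sum. In epithelium KO against WT gave 0 of 33, 58, 35 and 48 members in Cd4, Cd8b1, Trdc and Cd8a-only cells by edgeR, with 4, 10, 6 and 11 at an unadjusted p under 0.05, and DESeq2 gave 0, 0, 0 and 1. Of all genes 0.171%, 0.187%, 0.209% and 0.205% passed by edgeR. In colon it gave 0 of 30, 21, 13 and 39, with 5, 2, 3 and 6 at an unadjusted p under 0.05, and DESeq2 gave 0 in each. Of all genes 0.136%, 0%, 0% and 0.0107% passed by edgeR. The counts depended on single libraries. Without library 1, 2 and 3 they were 3, 1 and 6 for KO against WT, 3, 8 and 9 for het against WT and 4, 4 and 4 for KO against het, and 0, 0 and 1, 1, 2 and 4, and 0, 0 and 0 of these were among the calls with all libraries. Het and KO sums come from 1 mouse each and WT sums from 2, so a genotype cannot be told apart from the private repertoire of its few animals.

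Trbv16 (chr6:41151791-41152230) in Cd4 cells was the member that passed between het and WT in both epithelium and colon, where 1.05% and 0.856% of all genes passed. In the epithelium it had 362, 115 and 456 CPM in WT libraries 1 to 3, 22.4, 14.3 and 18.6 in het and 90.9, 60.0 and 0 in KO libraries. Every WT value lay above every het and KO value. The het difference from WT was -4.22 ± 0.74 (log2, edgeR with the library as a block, adjusted p = 0.0255). In the colon it had 41.0, 124 and 109 CPM in WT, 6.85, 29.3 and 5.68 in het and 59.2, 147 and 108 in KO libraries. Het lay below WT and KO without overlap, and KO overlapped WT. The het difference from WT was -2.70 ± 0.35 (adjusted p = 0.00608) and KO was higher than het by 2.94 ± 0.35 (adjusted p = 0.0339, where 0.0124% of all genes passed). As a share of beta calls, epithelial Trbv16 was 24.3%, 12.8% and 33.3% in WT, 1.60%, 0.882% and 2.00% in het and 4.70%, 4.14% and 0% in KO libraries, from 37 to 680 calls each. Trbv16 UMIs were 83, 38 and 265 and calling cells 9, 5 and 29 in WT, 41, 54 and 5 UMIs and 4, 6 and 1 cells in het, and 87, 62 and 0 UMIs and 7, 6 and 0 cells in KO libraries. Single expansions, described below, enter these shares. Het library 2 had 592 of its 680 calls in Trbv13-3, and over its other 88 calls Trbv16 held 6.82%, a total chosen after seeing the data. With Trbv13-3 left out in each sum, het held 1.61%, 6.82% and 2.13%, KO 4.79%, 4.41% and 0% and WT 25.0%, 13.2% and 34.5%. In WT library 3, Trbv16 was joined with Trav7-5 in 18 of 20 cells. The calls did not hold in every setting: by DESeq2 with all libraries the adjusted p was 0.161 in epithelium, without library 1 that of edgeR was 0.244 in epithelium and 0.0845 in colon, and for KO against het 0.170, 0.0992 and 0.262 without library 1, 2 and 3. With no replicate block the colon adjusted p was 0.119 for het against WT and 1.00 for KO against het, and with a hashtag share of at least 80% 0.210 and 0.460. With Cd3e of at least 2 it was 0.0520 for KO against het. At the hashtag share of at least 80%, the colon Cd4 sum of KO library 1 kept 13 of 75 cells and was left out of the fit.

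**Figure D4:**
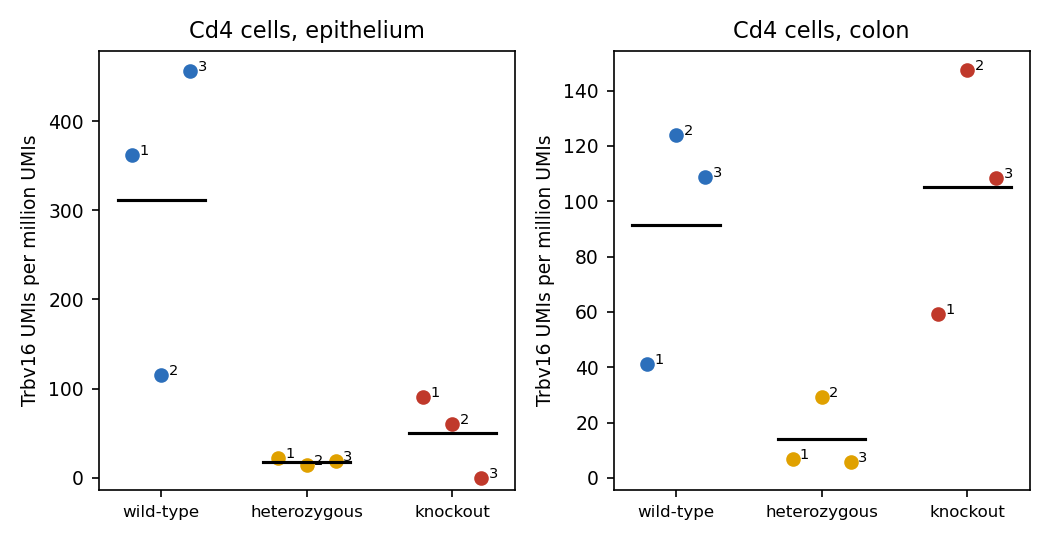
Trbv16 CPM (y axis) in Cd4 cells of epithelium and colon by genotype, 1 point per library with its number, bars at the means. The 3 het libraries lie between 5.68 and 29.3 in both tissues, below all WT libraries.

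The other genotype calls were single cases. Trbv26 in colon Cd4 cells had 3 UMIs over the het libraries and 88 over WT, a ratio of 15.5 per UMI sequenced (exact counting interval 5.14 to 76.8, edgeR, adjusted p = 0.0460), and the call ended without any 1 of the libraries (0.0932, 0.0824 and 0.273), with no replicate block (0.149), at a hashtag share of at least 80% (0.315) and at Cd3e of at least 2 (0.0601). The counting interval of Trbv26 leaves out the spread between cells and libraries. KO libraries held 29.6, 39.0 and 75.9 CPM of Trbv26. Trav15-2-dv6-2, a gene of alpha and delta chains, had 32.6, 30.3 and 31.8 CPM in epithelial Trdc cells of het libraries 1 to 3 and 76.1, 81.5 and 70.1 in WT, without overlap (-1.29 ± 0.18, adjusted p = 0.0110, ended without library 2, 0.154, and at a hashtag share of at least 80%, 0.10, where 0.209% of all genes passed). KO libraries held 36.8, 73.9 and 59.5 CPM. Trbv1 in lamina propria Cd4 cells had 189 CPM in the single WT sum that entered (library 2, 32 cells, 23 UMIs), 117, 24.4 and 26.0 in KO and 79.2 and 6.71 in het libraries. It passed for KO (-3.17, adjusted p = 0.000266) and het (-3.92, 8.55e-06) against WT by edgeR with the lone WT sum assumed to vary like the others, but not with no replicate block (0.647 and 0.588), and by DESeq2 in neither comparison, so it says nothing of the spread between WT samples. Of 5 members tested there, 1 passed in each comparison, where 1.62% and 2.02% of all genes passed.

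Some V genes took a far larger share of calls in 1 sum than in any other. A V gene was counted as expanded in a sum when it held at least 5% and at least 10 of the calls at its locus and at least 2 times the share of the second highest sum, among sums with 50 or more calls. Of 586 combinations of gene, class and tissue, 47 met this, 37 in epithelium and 10 in colon. By genotype 20 were in KO, 15 in het and 12 in WT sums, and by library 10, 23 and 14 in libraries 1, 2 and 3. The lamina propria had too few calls to enter. Since WT sums pool 2 mice, these counts are not compared between genotypes. Without library 2 or 3 the count was 24 or 25, of which 19 and 20 were among the 47. Without library 1 it was 44, of which 29 were. Leaving out a library also left fewer sums that could meet the rule. The Trbv16 share of epithelial Cd4 cells met the rule in WT library 3, but the WT libraries with under 50 calls were high too.

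The largest expansion was Trbv13-3 (chr6:41130147-41130585) in epithelial Cd4 cells of het library 2. It held 592 of 680 beta calls there (87.1%), and 0.8% to 6.21% in the 6 other sums with 50 or more calls. Trav10 (chr14:53505790-53506286) held 69.9% of the alpha calls in the same cells and its copy Trav10n 17.7%. Of Trbv13-3 cells with an alpha call, 449 of 458 (98.0%) held a gene of the Trav10 family, against 7 of 59 other cells. The same pair stood out in the Cd8a-only cells of the sum, where Trbv13-3 held 32.0% of beta calls, Trav10 31.7% and Trav10n 6.96% of alpha calls, and 77 of 80 Trbv13-3 cells held a Trav10 family gene. Over all classes, 536 of 947 cells of that sum with both calls had the pair (56.6%), against 2 of 3279 other epithelial cells. The same sum led epithelial Trdc cells in Trbv15 (46.3% of beta calls, next 17.0%), Tcrg-V3 (6.55% of gamma calls, next 1.17%, with Trdv5 in 26 of 27) and Trdv5. Het library 2 also gave the most epithelial Cd4 cells, 728, where the other sums gave 43 to 356. Joining-gene calls were made in only a part of its 592 Trbv13-3 Cd4 cells. The leading Trbj call was Trbj2-4 (36 of 131) and the leading Traj call Traj32 (12 of 96). Whether these calls come from the receptor transcript, and how many chains the cells hold, was not tested.

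**Figure D5:**
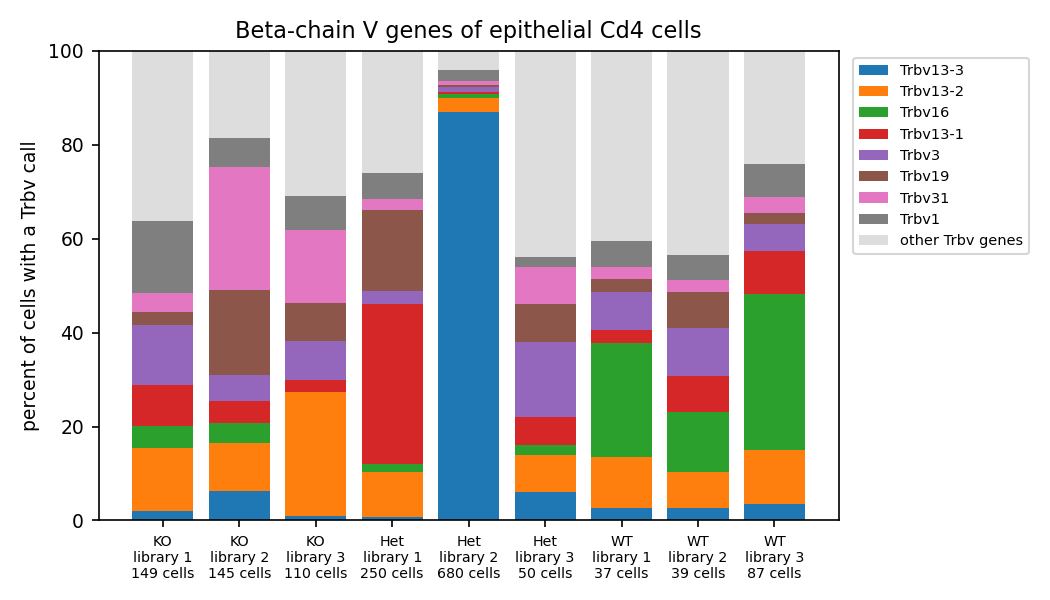
Share of beta V calls (y axis, percent of cells with a call) held by 8 Trbv genes in epithelial Cd4 cells of each genotype and library sum, with the number of called cells under each bar. Trbv13-3 fills 87.1% of het library 2, Trbv13-1 34% of het library 1, and the Trbv16 share is highest in the 3 WT libraries.

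Epithelial Cd4 cells held further expansions, most with a leading partner chain. In het library 1, Trbv13-1 held 34% of beta calls (next 9.20%) with a Trav9-4 family gene in 4 of 11 cells, Trav10d 32.9% of alpha calls with Trbv19 in 16 of 23, and Trav4-2 7.69% with Trbv5 in 4 of 4. In WT library 3, Trbv16 (33.3%, next 4.70%) and Trav7-5 (34.2%, next 9.01%) were joined in 18 of 20 cells. KO library 1 had Trbv1 (15.4%) with Trav7-5 in 9 of 19 and Trbv29 (6.71%) with Trav12-3 in 8 of 8. KO library 2 had Trav9-2 (10.5%) with Trbv19 in 10 of 11, and KO library 3 Trav13-1 (28.9%) with Trbv5 in 7 of 11. The leading beta gene of a sum held 15.4% to 87.1% of calls in the 7 epithelial Cd4 sums with 50 or more calls, and 9.86% to 18.5% in the 6 such colon Cd4 sums.

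In epithelial Cd8a-only cells of KO library 2, Trbv19 held 39.8% of beta calls (next 8.47%) and Trav4-3 30.6% of alpha calls (next 3.07%), and 45 of 56 Trbv19 cells held Trav4-3. Colon Cd8a-only cells of KO library 2 showed the same pair, with Trbv19 at 26.6% (next 8.72%), Trav4-3 at 19.6% (next 3.03%) and both in 8 of 10 cells. Over all classes the pair was in 47 of 491 cells of this epithelial sum and 9 of 153 of this colon sum, against 2 of 3735 and 2 of 1378 cells of the other sums. Trbv29 in Cd8b1 cells was also expanded in KO library 2 of both tissues, at 20.9% (next 8.12%) and 20.0% (next 5.56%), with a Trav21 family gene in 14 of 38 and 3 of 5 cells. Trbv16 with Trav12-1 was in 25 of 471 epithelial and 5 of 168 colon cells of KO library 3, against 17 of 3755 and 4 of 1363 others, and Trbv12-1 with Trav8-1 in 12 of 538 and 3 of 166 of KO library 1, against 4 of 3688 and 1 of 1365. These 3 were picked from 13 pairs examined because they recurred, and each of the other 10 was in at most 1 such cell. Grouped by alpha family, Trbv13-3 with Trav10 was in 1 of 96 and Trbv19 with Trav10 in 1 of 105 colon cells of the sum of equal number, and Trbv16 with Trav14-3 in 1 of 173. Trbv19 with Trav16 (0 of 166), Trav7-4 (0 of 173) or Trav9-2 (0 of 153), Trbv16 with Trav7-5 (0 of 173), Trbv2 with Trav21 (0 of 166) and Trbv3 with Trav8-2 (0 of 168, against 10 of 1363 in the other colon sums) were not seen there. Trbv31 with Trav14-3, from colon WT library 2, was in 0 of 177 epithelial cells of that number. The files do not tie a library number of 1 tissue to the same mice in another.

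The remaining epithelial Cd8a-only expansions were Trav8-2 in KO library 3 (9.20%, with Trbv3 in 10 of 15), Trav15d-1-dv6d-1 in WT library 3 (8.60%, with Trbv12-2 in 2 of 10) and Trav7-5 in WT library 3 (5.38%, with Trbv13-1 in 3 of 7). Epithelial Cd8b1 cells held 10 more beside Trbv29. In them, KO library 1 had Trav16 (16.4%, next 4.27%, with Trbv19 in 35 of 46), Trbv2 (8.53%, with a Trav21 family gene in 18 of 30) and Trav8-1 (6.29%, with Trbv12-1 in 12 of 17). KO library 2 had Trav1 (8.20%, next 1.55%, with Trbv5 in 6 of 9) and KO library 3 Trav12-1 (10.2%, next 1.56%, with Trbv16 in 25 of 27). Trav1 is known from mucosal-associated invariant T cells, which are rare in laboratory mice. WT library 3 had Trav7-4 (8.28%, next 1.85%, with Trbv19 in 30 of 39) and Trav14n-3 (7.89%, with Trbv16 in 33 of 39), and WT library 2 Trbv3 (12.1%, with a Trav6-7 family gene in 4 of 10). Het library 1 had Trbv31 (8.12%, with a Trav14-3 family gene in 2 of 6) and het library 3 Trbv14 (12.8%, next 4.04%, with Trav8-1 in 3 of 4).

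In the gamma-delta class of the epithelium, Trav12-3 in KO library 3 held 25.2% of alpha-locus calls (next 0.8%) and 29 of 30 such cells used Tcrg-V7. Trav13-1 in WT library 2 held 9.90% (next 2.40%), with Tcrg-V7 in 8 of 10. Neither gene is named as shared with the delta chain. Among beta genes, Trbv1 in het library 3 held 19.7% (next 7.5%) and Trbv13-3 in KO library 2 12.1% (next 5.00%), with a Trav15-2 family gene in 4 of 7 and 1 of 1, and Trbv15 in het library 2 had a Trav13-4 family gene in 1 of 3. The remaining colon expansions were Trbv31 in Cd8b1 cells of WT library 2 (22.8%, next 8.33%, with a Trav14-3 family gene in 15 of 23) and Trbv13-2 in Cd8b1 cells of KO library 1 (16.4%, with a Trav13-4 family gene in 1 of 1). In Cd8a-only cells they were Trbv13-2 in WT library 3 (21.8%, with a Trav14-1 family gene in 3 of 10), Trbv31 in KO library 2 (11.7%, with Trav13-1 in 4 of 5), Trbv23 in het library 3 (9.79%, with a Trav6-6 family gene in 4 of 6) and Trav21-dv12 in WT library 2 (11.6%, with Trbv1 in 8 of 13). Colon Cd4 cells had 1, Trav9-1 in WT library 2 (11.4%, next 3.45%, with Trbv2 in 6 of 9). Partner chains were grouped over d and n copies and over names with and without dv.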

How the data were processed

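Single-cell RNA from the 5′ end and hashtag antibody tags were read in 9 RNA and 9 hashtag libraries, 3 per tissue. The deposited matrices hold UMI counts per gene or hashtag and cell, as whole numbers, with libraries of a tissue in 1 matrix. Cell Ranger, Seurat and mm10 are named, per the submitters' processing notes, with versions not given in the sources used here, and which steps used each is not stated. Cells with 200 to 8000 genes, 300 to 50000 UMIs and under 20% mitochondrial counts were kept, the limits per the series' design text, which removed 280, 253 and 401 cells from epithelium, lamina propria and colon. No doublet caller was run. Doublets can give a cell a second Trbv gene or a gamma gene.

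Libraries were taken as barcode endings 1 to 3, 4 to 6 and 7 to 9, and which run each belongs to is not given in the files. UMIs of a class were added up within each genotype of a library, and sums under 20 cells were left out of fits. CPM are counts scaled to the total of a sum. Whole count tables were tested with edgeR 4.0.16 (quasi-likelihood F test, TMM, filterByExpr, R 4.3.3) with Benjamini-Hochberg adjustment over all genes tested and a threshold of 0.05. Genotype fits had the library as a block, since cells of the genotypes were combined before capture, class fits had the sum as a block, and tissue fits had genotype as a covariate. The samples of a tissue fit are 3 runs of few mice, so p-values there measure the spread between sums and not between independent animals. DESeq2 1.42.0 was an alternative. Shares used Python 3.11.15 and exact permutation tests used scipy 1.17.1. Sums of at least 20 calls were examined for a share far from its group. On simulated data, the fit of KO against WT in epithelial Cd4 cells (8782 genes) recovered 90% of genes changed by 2 and 50% of genes changed by 1 on the log2 scale, and in colon Trdc cells (6023 genes) 92% and 25%. The simulated spread followed the trend over all genes and held no expansions, so these rates were not shown to hold for V genes.

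Other settings tried were DESeq2, other size factors, no filter on low counts, each library left out, no block or a replicate block, sums per library, cells with a hashtag share of at least 80%, Cd3e of at least 2, calls of at least 2 UMIs, and cells thinned to 1000 UMIs. Collapsing alpha copies and pairing tissues by number for the Tcrg-V7 share were chosen after seeing the data. The members, lists and rules were chosen with earlier results of these data known. Named genes were a fixed list of gamma, delta, dv and common beta genes, the 5 most used per locus, class and tissue, up to 6 calls per direction of a comparison by fold, and every expansion; any member named beyond these was named after its values were seen. All 175 members matched RefSeq by identifier, on GRCm38.p6.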

Additional observations from a re-analysis of the deposited data

Results flagged for a closer look

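Of 67 V gene shares examined for a sample far from the rest of its group, 46 had a highest sum whose gap to the next exceeded Dixon's 95% limit. Chance gives about 1 in 20 such groups. Of the 46 shares, 43 were expansions, which had been chosen because 1 sum stood above the others, so their number is no evidence by itself. Each value below is the percent of called cells at the locus in the highest sum.

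In epithelial Cd4 cells, het library 2 stood apart with Trbv13-3 (87.1%), Trav10 (69.9%) and Trav10n (17.7%), and het library 1 with Trbv13-1 (34%), Trav10d (32.9%) and Trav4-2 (7.69%). Trav7-5 in WT library 3 was at 34.2%, Trav13-1 in KO library 3 at 28.9%, Trbv1 and Trbv29 in KO library 1 at 15.4% and 6.71%, and Trav9-2 in KO library 2 at 10.5%.

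In epithelial Cd8a-only cells, KO library 2 stood apart with Trbv19 (39.8%) and Trav4-3 (30.6%), and het library 2 with Trbv13-3 (32.0%), Trav10 (31.7%) and Trav10n (6.96%). Trav8-2 in KO library 3 was at 9.2%, and Trav15d-1-dv6d-1 and Trav7-5 in WT library 3 were at 8.6% and 5.38%.

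In epithelial Cd8b1 cells, KO library 2 had Trbv29 at 20.9% and Trav1 at 8.2%, and KO library 1 had Trav16 at 16.4%, Trbv2 at 8.53% and Trav8-1 at 6.29%. Het library 3 had Trbv14 at 12.8%, WT library 2 Trbv3 at 12.1%, KO library 3 Trav12-1 at 10.2% and het library 1 Trbv31 at 8.12%. WT library 3 had Trav7-4 at 8.28% and Trav14n-3 at 7.89%.

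In the gamma-delta class of the epithelium, het library 2 had Trdv5 at 81.3%, Trbv15 at 46.3% and Tcrg-V3 at 6.55%. Trav13-4-dv7 in KO library 1 was at 67.9%, Trav12-3 in KO library 3 at 25.2%, Trbv1 in het library 3 at 19.7%, Trbv13-3 in KO library 2 at 12.1% and Trav13-1 in WT library 2 at 9.9%. In the colon, Trdv5 in WT library 2 was at 53.9% of delta calls, among 4 sums with 20 or more.

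In colon Cd8a-only cells, KO library 2 had Trbv19 at 26.6%, Trav4-3 at 19.6% and Trbv31 at 11.7%. Trbv13-2 in WT library 3 was at 21.8%, Trav21-dv12 in WT library 2 at 11.6% and Trbv23 in het library 3 at 9.79%. In colon Cd8b1 cells, Trbv29 in KO library 2 was at 20.0%. Whether 1 clone, several clones or a mouse's wider repertoire stands behind any of these shares was not tested.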

How the results depend on the processing

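Of 119 named gene results, 49 kept their direction and call in each of the alternatives run. Of 1018 alternative values, 876 kept the call, 141 kept the direction without it and 1 turned direction: Trbv31 in Cd8a-only cells, epithelium against colon, was -2.17 to 0.0769 with 1 library left out, turning without library 2. Leaving out libraries 1, 2 and 3 ended or turned 24, 28 and 34 calls, and the cause was not tested.

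Counts of members called ran, with 1 library left out, from 12 to 20 for Cd8b1 against Cd4, 21 to 24 for Cd8a-only against Cd8b1, 24 to 32 for Trdc against Cd8a-only, 20 to 31 for epithelium against colon, 11 to 11 for epithelium against lamina propria, 9 to 14 for lamina propria against colon, 1 to 6 for KO against WT, 3 to 9 for het against WT and 4 to 4 for KO against het. Without a filter on low counts they were, in the same order, 51, 54, 110, 121, 88, 102, 73, 97 and 92. With no replicate block, KO against WT gave 0, KO against het 0 and het against WT 2. With a hashtag share of at least 80% these were 2, 0 and 2, and with Cd3e of at least 2 they were 0, 0 and 3. Cd3e of at least 2 gave 8 for epithelium and 5 for colon against lamina propria. DESeq2 gave 27 and 32 for these, and 10 for het against WT. Sums per library gave 46 for epithelium against colon and 33 and 39 for epithelium and colon against lamina propria.

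Between tissues, sums of equal number and genotype did not meet the criterion for pairing, a correlation over 0.1 in every pair: of 9 correlations of epithelium with colon (-0.06 to 0.33), 3 were over 0.1 (KO library 2 and 3 and WT library 2) and 4 sums matched best with their own number. A replicate block gave 20 calls for epithelium against lamina propria and 32 and 22 for the others.

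Expansions numbered 25 in thinned cells (15 of them among the 47 of the main setting), 28 at 3 times the second highest sum, and 24 to 44 with 1 library left out. The Tcrg-V7 difference was -24.8 to -17.8 points with 1 library left out (with the replicate block, sums paired by number, exact two-sided permutation p = 0.00391). The share of T cells with a V call was 78.2%, 18.2% and 83.1% in epithelium, lamina propria and colon at 2 UMIs, 65.2%, 25.0% and 69.8% thinned, 95.5% in colon at Cd3e of at least 2, and 90.6% to 92.7%, 45.3% to 48.8% and 92.2% to 93.0% with 1 library left out. Lamina propria sums gave too few calls for an expansion to be detectable.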

Other observations

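In colon gamma-delta cells of WT library 3, Trbv16 held 21 of 34 beta calls (61.8%), and 0% to 18.2% in the 8 other sums, of 8 to 56 calls. The sum had too few calls to be counted among the expansions. In 9 colon sums Trbv16 averaged 13.9% of such calls.

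Trgv2, a gamma V gene that the features list under another name than the members, had a UMI in 64.0% of epithelial Cd4 cells and 10.9% of colon Cd4 cells. In the Trdc cells it was in 80.0% and 76.5%. It had UMIs in more epithelial Cd4 cells than the 24.1% with a call of any Tcrg-V member. Both shares are pooled over sums, and het library 2 gave 728 of the 1837 epithelial Cd4 cells.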
